A study of Mus with 18 samples.

Results

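The ATF4 and amino acid stress genes are 39 named mouse genes that encode the transcription factor ATF4, factors that act with it, and the enzymes, transporters and tRNA synthetases of the amino acid response. They were taken by gene name from the deposited table of 54532 genes, where they filled 40 rows because Ddit3 had a second identifier with no count in any library. Of the 39 genes, 35 passed the filter on low counts and were tested together with all 13251 genes that passed it. The other 4 were Phgdh, Stc2, Vldlr and Aldh1l2.

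ATF4 is made when a kinase that senses stress phosphorylates the initiation factor eIF2, because most translation then slows while the ATF4 transcript is read more. The kinases respond to uncharged tRNA, to misfolded protein in the endoplasmic reticulum, to double-stranded RNA or to a lack of heme. ATF4 protein then binds composite C/EBP and ATF sites together with partner factors and raises the transcription of genes that make, import and charge amino acids. The counts describe transcripts only, and neither ATF4 protein nor eIF2 phosphorylation was measured here.

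The cells were RAW264.7, a mouse macrophage-like line, and RNA was taken after 6 h of treatment. There were 6 groups of 3 libraries. Control cells were left untreated, and a second group was given only lipopolysaccharide (LPS, the endotoxin of Gram-negative bacteria) at 1 µg/mL. The remaining groups received this LPS plus 1 compound at 100 µM. The compounds were 2 plant phenolics, caffeic acid (CA) and chlorogenic acid (CGA, caffeic acid esterified with quinic acid), and the cysteine adduct of each, CACys and CGACys. No group received a compound without LPS, and none received cysteine alone. All groups are of 1 cell line, and the labels do not say that the libraries came from separate cultures, so p-values measure only the spread between these samples.

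Library totals ran from 16105817 to 25624935 counts. Of 8 macrophage markers 8 had counts in every group, and their summed level lay between 4684 and 6470 CPM (counts scaled to a common library size) in all 18 libraries. The epithelial marker sum was at most 0.221 CPM and the lymphocyte sum at most 0.516 CPM. The fibroblast sum ran from 1.28 to 7.04 CPM with Col3a1 at 0, and the neutrophil sum from 4.27 to 16.4 CPM with Mpo at 0. Replicate 2 of LPS + CA stood apart, with 5.28% of counts in ribosomal protein genes against 4.45% and 4.46% in the other two libraries of its group, and results that rest on it are given with and without it. In bulk RNA, fewer cells of a kind and less RNA per cell cannot be told apart.

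The 39 genes took a larger share of all counts with LPS. They held 0.516% ± 0.00349 of counts in control cells and 0.998% ± 0.00927 with LPS (mean ± SD, n = 3), and the share was 1.07% ± 0.0279 with CA, 0.987% ± 0.00524 with CGA, 0.920% ± 0.00984 with CACys and 0.929% ± 0.00801 with CGACys. All 6 libraries with a cysteine adduct lay below every other library given LPS. All 3 CA libraries lay above the rest.

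**Figure D1:**
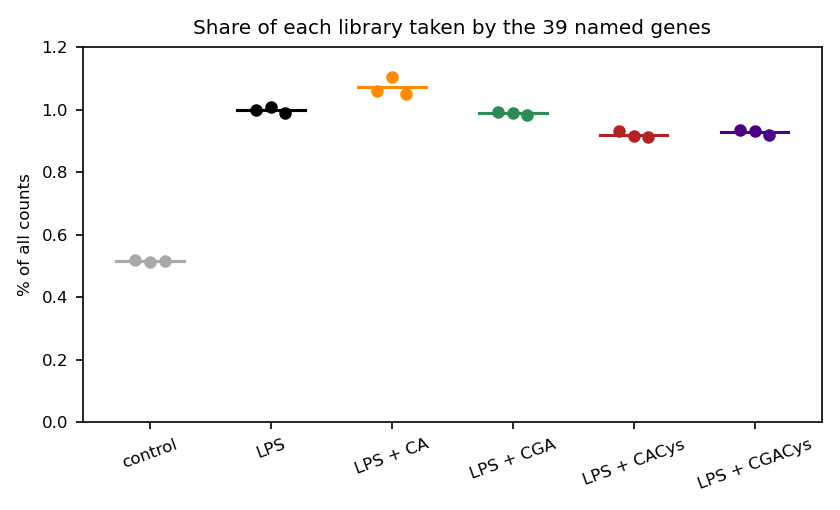
Share of all counts, in percent, taken by the 39 genes in each of 18 libraries (points) with the group mean (line). Control libraries lie near 0.516%, LPS and CGA libraries near 1%, CA libraries above them, and both adduct groups below.

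LPS against control asked which of these genes the endotoxin alone altered. Of the 35 tested members 33 rose and 0 fell, while 30.6% of all tested genes were called higher and 31.6% lower. The median member changed by a log2 of 1.29, against -0.02 over all tested genes, and 25 of the called members changed at least 2-fold. In each of the 33 called members the 3 LPS libraries lay above the 3 control libraries. A gene is called at an adjusted p of 0.05 or less by the quasi-likelihood test of edgeR, with p-values adjusted by Benjamini-Hochberg across the whole tested table. Levels are in CPM, which is not per transcript length, so they are compared between groups and not between genes.

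Among the transcription factors 8 of 8 rose. Atf4, on chromosome 15 from 80255184 to 80257545 (GRCm38.p6), stood at 314, 287 and 304 CPM in the 3 control libraries and at 895, 959.7 and 892 CPM with LPS. Its lowest LPS library lay far above its highest control library, and the change was 3.04-fold (log2 1.60, SE 0.055, edgeR adjusted p = 1.15e-20). Atf3, a stress-induced factor that can also repress transcription, went from 92.6, 102 and 99.8 to 325, 321 and 314 CPM, or 3.26-fold. Nupr1, a small chromatin-associated stress protein, went from 12.4, 10.6 and 9.45 to 34.6, 35.8 and 31.7 CPM, or 3.13-fold. Both groups of libraries were tight and apart for each of these genes. Cebpb, which encodes C/EBP beta, a partner of ATF4 and a main factor of macrophage activation, went from 264, 243 and 242 to 723, 779 and 731 CPM. Ddit3, which encodes CHOP, the factor tied to death after long stress (chromosome 10, 127290793 to 127296291), was at 7.72, 6.86 and 9.34 CPM in control and 19.1, 21.1 and 16.7 CPM with LPS. It rose 2.38-fold (log2 1.25, SE 0.12, edgeR adjusted p = 2.14e-10). The other factors, Jdp2, Atf5 and Cebpg, rose by log2 values from 0.73 to 0.75. Ddit3 overlaps Mbd6 by 77 bases and Mars1 by 71, and Atf5 overlaps Nup62 by 571, and the sources used here do not say whether counting used the strand, so reads in such stretches may belong to either gene.

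Genes of feedback and stress handling rose in 6 of 6 tested cases. Chac1, which encodes an enzyme that cleaves glutathione, changed most, from 10.2, 7.68 and 8.80 to 51.1, 47.8 and 43.4 CPM, or 5.32-fold. Sesn2, which encodes a leucine sensor that restrains mTORC1, went from 19.0, 21.7 and 17.7 to 92.0, 94.0 and 78.7 CPM, or 4.53-fold. Trib3, a pseudokinase that feeds back on ATF4 (chromosome 2, 152337425 to 152344060), went from 34.6, 32.8 and 35.8 to 143, 131 and 126 CPM. In these genes the LPS libraries stood several times above control with no overlap. The Trib3 change was a log2 of 1.96 (SE 0.066, edgeR adjusted p = 7.65e-21). Ppp1r15a, which encodes GADD34, the phosphatase subunit that reverses eIF2 phosphorylation, rose 3.15-fold to 67.8, 68.5 and 62.5 CPM. Eif4ebp1, a translation repressor gene, rose 2.55-fold and Ddit4, which encodes REDD1, an inhibitor of mTORC1, only 1.32-fold. Vldlr had 2 counts in 1 library and Stc2 had 0 in all 18, where 3 counts over all libraries would be 0.00840 CPM.

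Of the serine and one-carbon enzymes 4 of 5 tested rose. Mthfd2, the mitochondrial enzyme that oxidises methylene-tetrahydrofolate (chromosome 6, 83305704 to 83326011), went from 112, 115 and 107 to 481, 480.0 and 460.3 CPM. That was 4.26-fold (log2 2.09, SE 0.047, edgeR adjusted p = 5.12e-25), the largest change of the group. Psat1, the aminotransferase that makes phosphoserine (chromosome 19, 15905123 to 15925059), went from 196, 198 and 201 to 426, 416 and 411 CPM, or 2.11-fold. Shmt2, which splits serine into glycine and a one-carbon unit in mitochondria, went from 178, 178 and 179.6 to 337, 352 and 316 CPM, and Mthfd1l, which releases formate, rose 2.15-fold. The first and last steps of serine synthesis did not share this pattern. Phgdh, which encodes the first enzyme, had 0 counts in all 18 libraries, which allows at most 0.00840 CPM over them for counting error alone. Psph, which encodes the phosphatase of the last step, stood at 9.19, 11.7 and 9.18 CPM in control and 7.89, 9.83 and 8.46 CPM with LPS, groups that overlap (log2 -0.20, 95% interval -0.50 to 0.10, edgeR adjusted p = 0.247). Psph overlaps Cct6a by 88 bases, where reads may belong to either gene, and Cct6a rose with LPS by log2 0.54. A pseudogene row, Phgdh-ps1, held 8 counts over all libraries, and how reads that match both were counted is not given. Aldh1l2, a mitochondrial folate enzyme gene, had 19 counts over 10 libraries and was not tested.

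Of the other amino acid and carbon enzymes 4 of 5 rose. Asns, which encodes asparagine synthetase (chromosome 6, 7675165 to 7693209), went from 94.4, 97.8 and 98.0 to 302, 308 and 288 CPM, or 3.09-fold (log2 1.63, SE 0.043, edgeR adjusted p = 2.85e-23). Pck2, which encodes mitochondrial PEP carboxykinase, rose 2.89-fold, Gpt2, which encodes mitochondrial alanine aminotransferase, 2.82-fold, and Aldh18a1, which makes the proline precursor, 2.45-fold. All groups were apart in these genes. Pycr1, which encodes the last enzyme of proline synthesis, stood at 7.48, 9.35 and 7.83 CPM in control and 9.99, 9.78 and 8.35 CPM with LPS and was not called (log2 0.19, 95% interval -0.05 to 0.43).

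All 7 transporters rose, over a wide range. Slc7a5, the light chain of the LAT1 exchanger for large neutral amino acids (chromosome 8, 121881146 to 121907686), went from 59.6, 65.1 and 62.5 to 255, 249 and 233 CPM, or 3.94-fold (log2 1.98, SE 0.049, edgeR adjusted p = 5.15e-24). Slc1a4, which carries neutral amino acids such as serine and alanine, rose 5.29-fold from 8.34, 7.78 and 9.99 to 45.3, 48.4 and 44.2 CPM. Slc6a9, the glycine transporter GlyT1, rose 3.72-fold and Slc7a1, the cationic amino acid carrier, 2.99-fold. Slc3a2, the heavy chain that pairs with Slc7a5, rose 2.38-fold and Slc1a5, the glutamine carrier ASCT2, 1.56-fold. At the low end, Slc38a2, the SNAT2 carrier of small neutral amino acids, stood at 777, 754 and 736 CPM in control and 834, 826 and 855 CPM with LPS, a log2 of 0.15 (edgeR adjusted p = 0.00202). The groups did not overlap, but with upper-quartile scaling factors the change was 0.07 and the call was lost (adjusted p = 0.135).

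The tRNA synthetases, which join amino acids to their tRNAs, rose in 4 of 4 cases. Aars, for alanine, stood at 206, 206 and 202 CPM in control and at 505, 508 and 493 CPM with LPS. Sars, for serine (chromosome 3, 108424864 to 108445259), went from 269.5, 273 and 272 to 473, 481 and 452 CPM, the smallest change of the group at 1.73-fold (log2 0.79, SE 0.044, edgeR adjusted p = 1.57e-15). In both, the libraries of a group differed by a few percent while the groups were far apart. Gars, for glycine, rose 2.37-fold and Nars, for asparagine, 2.31-fold. Aars overlaps Ddx19b by 3974 bases.

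**Figure D2:**
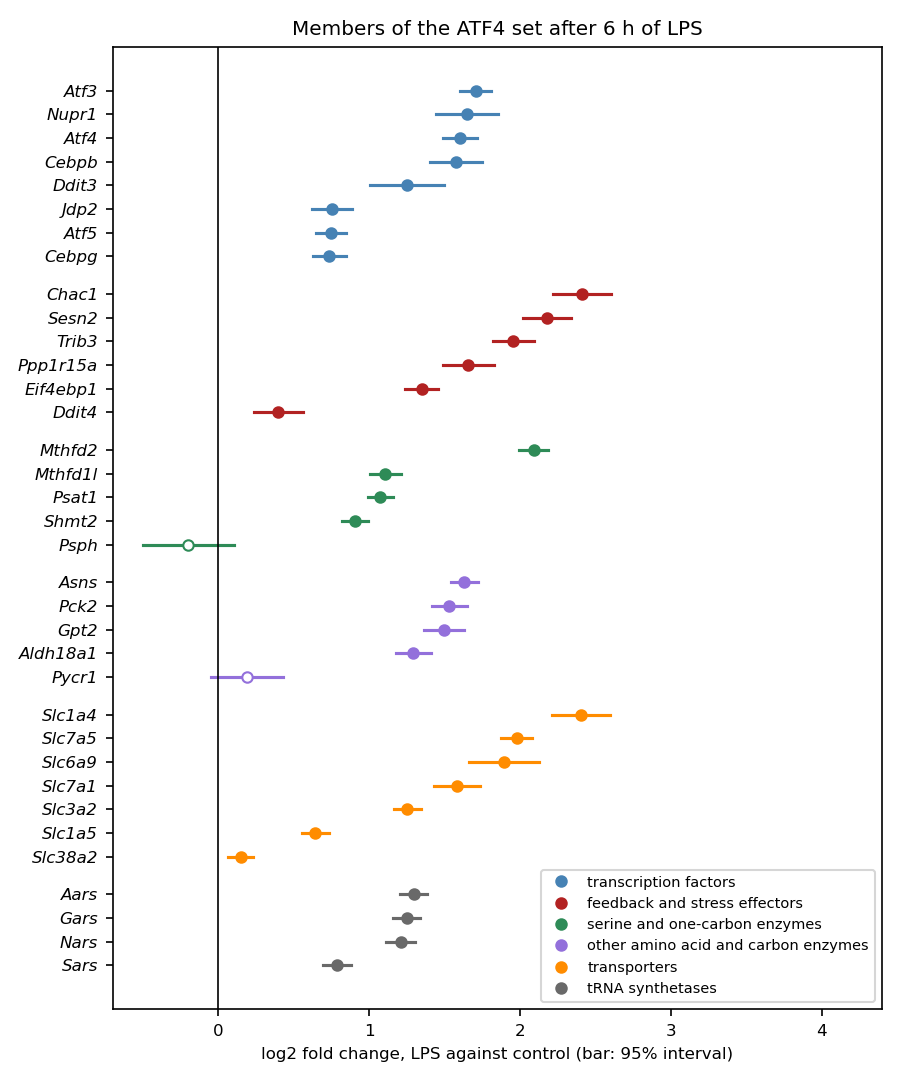
Log2 fold change of LPS against control for the 35 tested members, grouped by role, with 95% intervals (bars) and filled points for called genes. Points run from -0.20 for Psph to 2.41 for Chac1, and the intervals of Psph and Pycr1 (open points) cross 0.

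Other genes of the pathway, from lists chosen with earlier results of these data known, are given by their counts. With LPS 30.6% of all tested genes were higher and 31.6% lower, so that counts of 5 and 5 of 17 lie near the background and counts of 14 of 16 and 10 of 10 above it. Of 16 other cytosolic tRNA synthetases 14 rose and 1 fell with LPS (median log2 0.75), among them Cars at 1.23, Eprs at 1.21 and Tars at 1.15. Of 17 mitochondrial tRNA synthetases 5 rose and 5 fell (median -0.04), with Cars2 at -0.95 and Ears2 at 0.63. Of 10 tested other genes reported as ATF4 responsive 10 rose, led by Slc7a11, the cystine and glutamate exchanger, at 3.97, Cth, which makes cysteine from cystathionine, at 3.31, and Gdf15, a stress cytokine, at 3.14. Of 17 other serine, glycine and folate genes 7 rose and 4 fell, among them Gcsh of the glycine cleavage system at -0.97. Of 16 eIF2 kinase and eIF2 control genes 8 rose and 4 fell, with Eif2ak2 (PKR, also an interferon-induced gene) at 2.15, Eif2s2 at 1.12 and Impact at 0.92. Of 15 endoplasmic reticulum chaperone and unfolded protein genes 4 rose and 6 fell, with Herpud1 at 1.59, Sdf2l1 at -0.74 and Pdia4 at -0.45.

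The next question was what each compound altered in cells given LPS. All 4 compounds were at the same dose and time and were set against the same 3 LPS libraries, so their values are given side by side. With CA 3 of 35 members rose and 0 fell, against 2.3% and 5.42% of all tested genes. With CGA 0 rose and 0 fell, against 0.0679% and 0.657%. With CACys 2 rose and 11 fell, against 8.51% and 5.75%, and with CGACys 6 rose and 11 fell, against 16.1% and 13%. The counts that rose with either adduct lie near these background shares. The median member changed by a log2 of 0.07 with CA, -0.06 with CGA, -0.08 with CACys and -0.05 with CGACys, while the medians over all tested genes were 0.01, -0.0019, 0.01 and 0.02. The summed macrophage markers also moved between the groups, from 5837 to 5997 CPM with LPS, 5200 to 5416 with CA, 5606 to 5703 with CGA, 5107 to 5197 with CACys and 4684 to 4728 with CGACys. Their part in the results was not tested.

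**Figure D3:**
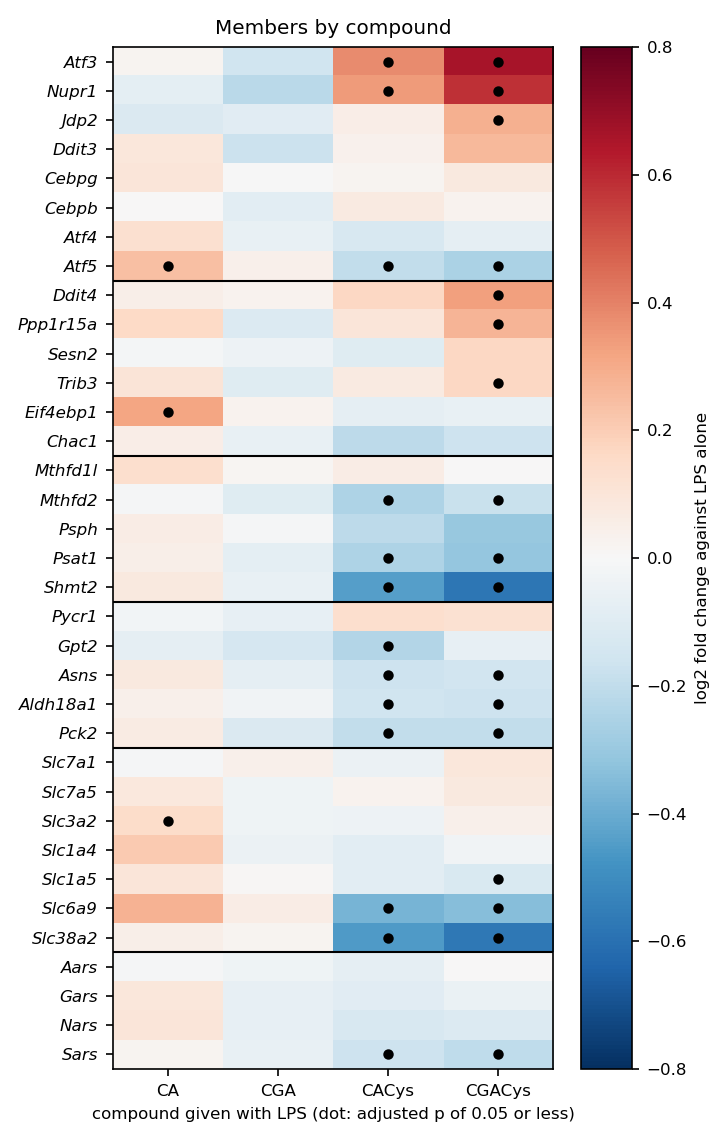
Log2 fold change against LPS alone (color) of the 35 tested members, in rows grouped by role, for the 4 compounds given with LPS, with a dot where the gene was called. The CGA column holds no dot, and both adduct columns run from red in Atf3 and Nupr1 to blue in Shmt2, Slc38a2 and Slc6a9.

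Among the transcription factors Atf3 and Nupr1 rose and Atf5 fell with both adducts, while Atf4 itself was not called with any compound in the fit of all groups. Atf4 stood at 895, 959.7 and 892 CPM with LPS, 954, 1121 and 931 with CA, 889, 857 and 896 with CGA, 835, 841 and 836 with CACys and 901, 867 and 840.4 with CGACys. The 3 CACys libraries lay below the LPS libraries, and the other groups overlapped with LPS. Its log2 change against LPS was 0.13 with CA (95% interval 0.02 to 0.24), -0.06 with CGA (-0.17 to 0.05), -0.13 with CACys (-0.24 to -0.02) and -0.07 with CGACys (-0.18 to 0.03). Without LPS + CA replicate 2, which held the highest value, the change with CA was 0.04 (edgeR adjusted p = 0.679), and without LPS + CA replicate 3 it was 0.18 and was called (0.0195). Atf4 was also called lower in a fit of only those groups with CACys (log2 -0.14, adjusted p = 0.0167) and with CGACys (-0.10, 0.0331), and with CACys when no expression filter was applied (0.0493).

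Atf3 stood at 325, 321 and 314 CPM with LPS and at 330.4, 322 and 322 CPM with CA. It reached 434, 417 and 396 CPM with CACys and 525, 496 and 497 CPM with CGACys. The adduct groups lay above LPS and apart from each other, with changes of 1.30-fold (log2 0.38, SE 0.046, edgeR adjusted p = 1.22e-06) and 1.58-fold (log2 0.66, SE 0.046, 1.33e-11). With CGA it stood at 303, 282 and 276 CPM, below all LPS libraries, and was not called (log2 -0.16, edgeR adjusted p = 0.105), but it was called in a fit of only those groups (adjusted p = 0.0319) and by DESeq2 (0.0224). Nupr1 stood at 34.6, 35.8 and 31.7 CPM with LPS, 42.8, 45.7 and 40.5 CPM with CACys and 53.4, 51.1 and 48.3 CPM with CGACys. Both adduct groups lay above LPS, by log2 0.34 (edgeR adjusted p = 0.00756) and 0.58 (5.48e-06), and the CACys call was lost without LPS replicate 3 or LPS + CACys replicate 2 (up to 0.0572). It was also at 28.2, 36.0 and 32.4 CPM with CA and 31.4, 29.8 and 26.7 CPM with CGA. Nupr1 lies within Gm39087, a noncoding transcript, over 2225 bases.

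Atf5, a factor related to ATF4, went the other way with the adducts, from 244, 253 and 249.6 CPM with LPS to 214, 224 and 214 with CACys and 217, 209.7 and 200.1 with CGACys. With CA it stood at 284, 320.2 and 278 CPM and with CGA at 259, 255 and 253 CPM. It thus rose with CA by log2 0.24 (edgeR adjusted p = 0.00117) and fell with CACys by 0.20 (0.00575) and with CGACys by 0.25 (0.000191), with no overlap in any of these. The call with CA was lost in a fit of only those groups (adjusted p = 0.0667), and without LPS + CA replicate 2 the change was 0.18 (0.00322). Nup62, which shares 571 bases with Atf5, changed by log2 0.04 with CA, -0.15 with CACys and -0.06 with CGACys. Jdp2, an AP-1 family factor, rose with CGACys from 70.8, 71.7 and 74.1 to 93.7, 86.4 and 83.8 CPM (log2 0.29, edgeR adjusted p = 0.000886). Ddit3 was not called with any compound. It stood at 17.5, 20.7 and 22.4 CPM with CA, 16.9, 17.3 and 16.1 with CGA, 20.7, 18.1 and 19.6 with CACys and 25.1, 22.2 and 20.6 with CGACys, groups that all overlapped with LPS, and its largest change was a log2 of 0.26 with CGACys (95% interval 0.04 to 0.47, edgeR adjusted p = 0.0677). That change was called without LPS replicate 2 (0.0347) or LPS + CGACys replicate 3 (0.0439).

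Genes of feedback and stress handling differed by compound. Eif4ebp1, which encodes the translation repressor 4E-BP1, stood at 137, 129 and 133 CPM with LPS, 163, 179 and 154 with CA, 134, 136 and 137 with CGA, 125, 126 and 129.6 with CACys and 133, 127 and 124 with CGACys. The CA libraries lay above all others and the remaining groups overlapped with LPS. The rise with CA was 1.24-fold (log2 0.31, SE 0.049, edgeR adjusted p = 0.000128), or 0.25 without LPS + CA replicate 2 (0.000169). With CGACys 3 genes of this role rose. Ddit4 stood at 59.6, 58.6 and 52.5 CPM against 45.9, 48.0 and 42.3 with LPS (log2 0.33, edgeR adjusted p = 0.00147) and Ppp1r15a at 85.1, 75.4 and 79.7 CPM against 67.8, 68.5 and 62.5 (log2 0.27, adjusted p = 0.00642). Both were apart from LPS.

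Trib3 stood at 143, 131 and 126 CPM with LPS, 142, 149.6 and 137 with CA, 125, 128 and 121 with CGA, 152, 137 and 132 with CACys and 154, 158 and 136 with CGACys. Every compound group overlapped with LPS. Its call with CGACys (log2 0.16, edgeR adjusted p = 0.0379) was lost in 6 of 12 alternatives, with adjusted p up to 0.212, among them without LPS replicate 2 or 3 and without LPS + CGACys replicate 1 or 2. Neither Chac1 nor Sesn2 was called with any compound against LPS in the fit of all groups. Chac1 was called lower with CACys in a fit of only those groups (log2 -0.22, edgeR adjusted p = 0.0235), without the expression filter (0.045) and without LPS replicate 3 (0.0409), and with CGACys in a fit of only those groups (-0.19, 0.0463). Sesn2 was called higher with CGACys in a fit of only those groups (0.14, 0.0446) and without LPS replicate 2 (0.21, 0.0423).

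Of the 5 tested serine and one-carbon enzymes 3 fell and 0 rose with each adduct, namely Shmt2, Psat1 and Mthfd2. Shmt2 changed most, at 337, 352 and 316 CPM with LPS, 349, 359 and 350.4 with CA, 321, 314 and 330.4 with CGA, 254, 246 and 239.7 with CACys and 227, 226 and 221 with CGACys. The adduct groups lay between control and LPS without touching either, while the parent acids overlapped with LPS. The fall was 1.36-fold with CACys (log2 -0.44, SE 0.043, edgeR adjusted p = 2.25e-08) and 1.49-fold with CGACys (log2 -0.58, SE 0.043, 3.7e-11). Psat1 stood at 442, 431 and 422 CPM with CA, 405, 389.9 and 395 with CGA, 355, 351 and 351 with CACys and 339, 341 and 332 with CGACys. Both adduct groups lay below every other LPS library, at log2 -0.24 (adjusted p = 4.67e-05) and -0.31 (5.13e-07). Mthfd2 stood at 454, 505 and 454 CPM with CA, 443, 451 and 436 with CGA, 385, 409 and 401 with CACys and 422, 415 and 417 with CGACys. Among the groups given LPS it too was lowest with the adducts, at log2 -0.25 (adjusted p = 0.000227) and -0.18 (0.00269). Mthfd1l, at log2 0.06 and 0.00, and the scarce Psph, at -0.21 and -0.30, were not called. None of the 5 was called with CA or CGA.

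**Figure D4:**
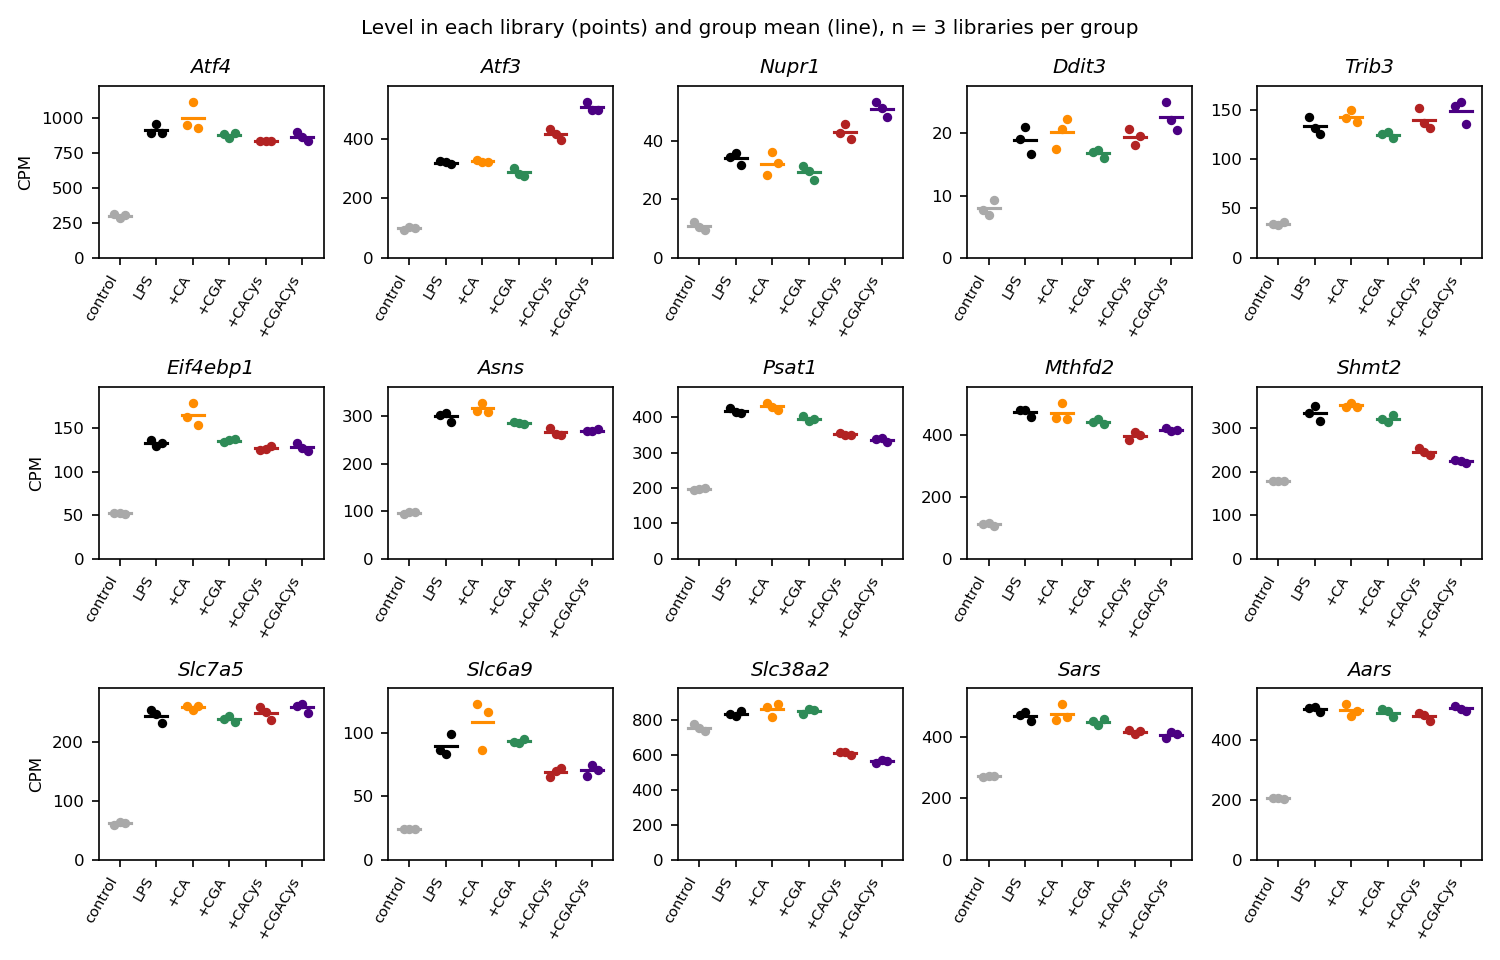
Level in CPM of 15 members in each library (points) with group means (lines), n = 3 per group, axes starting at 0. Atf3 and Nupr1 are highest with CGACys, Eif4ebp1 is highest with CA, and Shmt2, Slc6a9 and Slc38a2 drop with both adducts, Slc38a2 to below the control libraries.

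Of the other amino acid and carbon enzymes 4 of 5 fell with CACys and 3 of 5 with CGACys. Asns stood at 311, 328 and 309.5 CPM with CA, 289, 285 and 282 with CGA, 276, 262 and 261 with CACys and 268, 268 and 272 with CGACys. Both adduct groups lay below LPS, by log2 0.17 (edgeR adjusted p = 0.00587) and 0.15 (0.00576). Pck2 fell by log2 0.19 and 0.20, Aldh18a1 by 0.16 and 0.17, and Gpt2 fell with CACys alone among the called results, by 0.23 against a log2 of -0.06 with CGACys. The difference between the adducts in Gpt2 was not called (log2 0.17, edgeR adjusted p = 0.163). The Aldh18a1 call with CACys was lost without any 1 of the 6 libraries compared (adjusted p up to 0.152), and that with CGACys without LPS replicate 3 or LPS + CGACys replicate 3 (up to 0.092). Gpt2 was lost without LPS replicate 1 (0.0509), and Pck2 with CACys without LPS replicate 2 or LPS + CACys replicate 2 (up to 0.0766).

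Of the 7 transporters 2 fell with CACys and 3 with CGACys. Slc38a2 stood at 875, 821 and 896 CPM with CA, 834, 865 and 857 with CGA, 620.1, 618 and 602 with CACys and 557, 573 and 564 with CGACys. The adduct libraries lay below LPS and below all 3 control libraries, and the 2 parent acids overlapped with LPS. It fell 1.37-fold with CACys (log2 -0.45, SE 0.041, edgeR adjusted p = 6.29e-09) and 1.48-fold with CGACys (log2 -0.57, SE 0.041, 1.65e-11). Slc6a9 stood at 86.0, 83.2 and 99.1 CPM with LPS, 123, 86.1 and 117 with CA, 92.9, 91.9 and 94.8 with CGA, 64.7, 69.5 and 72.5 with CACys and 66.1, 74.7 and 70.9 with CGACys. The adduct groups were below LPS, by log2 0.37 (adjusted p = 0.0167) and 0.34 (0.0144). Replicate 2 of CA was far below the other two, so that with CA the gene was not called (log2 0.28, 0.101) but reached 0.42 (adjusted p = 7.03e-06) without that library. The calls with the adducts were lost without LPS replicate 3, and with CACys also without LPS + CACys replicate 1 and with CGACys without LPS + CGACys replicate 1 (up to 0.0753 and 0.0693).

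Neither chain of LAT1 was called with an adduct against LPS. Slc7a5 stood at 263, 256 and 262 CPM with CA, 239, 246 and 236 with CGA, 260.0, 252 and 238 with CACys and 262, 266 and 250.3 with CGACys, none of which was called against LPS. The 95% intervals of its log2 change were -0.01 to 0.18, -0.13 to 0.06, -0.07 to 0.12 and -0.01 to 0.17 in that order, which does not show that the compounds act alike. Its heavy chain Slc3a2 stood at 1146, 1186 and 1155 CPM with LPS and 1314, 1339.7 and 1197 with CA, and rose by log2 0.14 (edgeR adjusted p = 0.0337). This call was lost without any 1 of LPS replicates 1, 2 and 3 or LPS + CA replicates 1 and 2, and in a fit of only those groups, with adjusted p up to 0.3. Without LPS + CA replicate 2 also Slc1a4 (log2 0.29, adjusted p = 0.00792) and Slc1a5 (0.13, 0.0459) were called with CA, so 5 members were called in place of 3. Slc1a5 fell with CGACys by log2 0.12 (0.0353), a call lost in 6 of 12 alternatives (up to 0.177), among them without LPS replicate 1 or 2 and without any 1 of the LPS + CGACys libraries.

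Among the tRNA synthetases Sars was the member called with an adduct in the fit of all groups. It stood at 455, 508 and 464 CPM with CA, 451, 439 and 458 with CGA, 422, 409.5 and 419 with CACys and 395, 417 and 408 with CGACys. Both adduct groups lay below LPS, by log2 0.17 (edgeR adjusted p = 0.00892) and 0.20 (0.000688), and the call with CACys was lost without LPS replicate 2 or LPS + CACys replicate 2 (up to 0.0529). Nars, at log2 -0.13 (0.0588) and -0.11 (0.0652), lay below LPS in all adduct libraries and missed the threshold. It passed with CACys under RLE scaling factors (0.04996), in a fit of only those groups (0.013) and by DESeq2 (0.0298), and with CGACys in a fit of only those groups (0.00221) and by DESeq2 (0.0417). Aars was at -0.07 and 0.01.

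With CGA 5 members had an unadjusted p under 0.05, all lower, against 10.3% of all tested genes, and the 95% intervals of the 35 log2 changes lay between -0.39 and 0.29. A missed threshold does not show that CGA left them as they were with LPS alone.

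Summed over these 6 lists 5 of 91 tested genes rose and 15 fell with CACys (5.49% and 16.5%, against 8.51% and 5.75% of all tested genes). With CGACys 11 rose and 16 fell (12.1% and 17.6%, against 16.1% and 13%), shares near the background. Of 16 other cytosolic tRNA synthetases 1 rose and 6 fell with CACys and 2 rose and 6 fell with CGACys, among them Farsa at -0.18 and -0.31 and Vars at -0.18 and -0.22. With 1 library left out at a time the CACys count ran from 0, without LPS replicate 1 or LPS + CACys replicate 3, over 2, without LPS replicate 2 or LPS + CACys replicate 2, and 4, without LPS + CACys replicate 1, to 6, and the CGACys count from 5, without LPS + CGACys replicate 3, to 7. Of 17 mitochondrial synthetases 3 fell with CACys and 4 with CGACys, led by Aars2 at -0.39 and -0.47, and 1 rose with CGACys. In the folate list Mthfd1, the trifunctional cytosolic folate enzyme, fell by 0.42 and 0.66, and Slc25a32, the mitochondrial folate carrier, by 0.24 and 0.30. Of the 10 tested other genes reported as ATF4 responsive 2 rose and 4 fell with CACys and 2 rose and 3 fell with CGACys, where Cth fell by 0.48 and 0.49. In the chaperone list 2 rose with CACys and 3 with CGACys and 0 fell, with Hspa5, which encodes BiP, at 0.19 and 0.26 and Sdf2l1 at 0.39 and 0.33. Of the eIF2 list 0 were called with CACys (up to 2 with 1 library left out) and 3 rose with CGACys (5 called without LPS replicate 2, of which 2 were lower), led by Eif2ak2 at 0.28, a gene that fell by 0.43 with CA. With CA the lists held 1 further call, Sqstm1 at 0.25, and with CGA 0.

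Each adduct was then set directly against its parent acid, which asked how the adduct differed from the free acid. Of 35 members 2 were higher and 19 lower with CACys than with CA, against 15.2% and 11.9% of all tested genes. With CGACys 8 were higher and 8 lower than with CGA, against 18.2% and 14.9%, and the count higher lies near that background share. The median difference was a log2 of -0.18 for the CA pair and 0.01 for the CGA pair. Atf3 was higher with the adduct in both, by log2 0.36 (SE 0.046, edgeR adjusted p = 8.42e-07) and 0.82 (SE 0.046, 1.18e-13), and so was Nupr1, by 0.41 (0.000449) and 0.80 (1.74e-08). Lower with the adduct in both were Slc38a2, at -0.49 and -0.59, Shmt2, at -0.52 and -0.52, Slc6a9, at -0.65 and -0.40, and Atf5, at -0.44 and -0.29. The groups were apart in all of these genes, and without LPS + CA replicate 2 the Slc6a9 difference in the CA pair was -0.795.

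Some members were called in 1 of these pairs, which does not show that the pairs differ. Atf4 was lower with CACys than with CA (log2 -0.26, SE 0.053, edgeR adjusted p = 0.000404; without LPS + CA replicate 2, -0.17, 0.000831) and stood at -0.02 (95% interval -0.13 to 0.09) in the CGA pair. Likewise Eif4ebp1 was at -0.39 (7.12e-07) and -0.09, Asns at -0.25 (3.35e-05) and -0.08, and Mthfd2 at -0.24 (0.000118) and -0.08. The CA pair values of these genes without LPS + CA replicate 2 were -0.32, -0.22 and -0.19, all called. Of the synthetases Gars, Nars and Sars were lower in the CA pair, from log2 -0.22 to -0.18, and Sars alone was called in the CGA pair, at -0.14. With LPS + CA replicate 2 left out the CA pair differences were -0.13 for Gars, -0.15 for Nars and -0.14 for Sars, all called. In a fit of only those groups 15 members were called in the CA pair in place of 21. The calls lost were those of Gars (edgeR adjusted p = 0.078), Sars (0.0588), Slc3a2 (0.0769), Slc1a5 (0.0557), Aldh18a1 (0.0599) and Gpt2 (0.143). In the CGA pair that fit also called Eif4ebp1 (-0.10, 0.0454), Asns (-0.10, 0.024) and Mthfd2 (-0.10, 0.0175) lower. It called Cebpb (0.10, 0.0178) and Slc7a5 (0.10, 0.0276) higher. Stress genes called higher in the CGA pair and not in the CA pair were Ddit3 at 0.43 (0.00184), Ppp1r15a at 0.38, Jdp2 at 0.38, Ddit4 at 0.30, Trib3 at 0.26 and Sesn2 at 0.21. The Sesn2 call was lost without LPS + CGA replicate 1 or 3 or LPS + CGACys replicate 1 (adjusted p up to 0.0752), and that of Sars in the CGA pair without LPS + CGA replicate 3 or LPS + CGACys replicate 1 (up to 0.0708). Ddit3, at 16.9, 17.3 and 16.1 CPM with CGA and 25.1, 22.2 and 20.6 with CGACys, showed no overlap. Without LPS + CA replicate 2 Cebpb (0.21) and Slc7a1 (-0.15) were also called in the CA pair.

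The difference between the 2 adduct effects was tested itself, as CGACys minus CGA less CACys minus CA. It was called in 4 of 35 members, all higher, against 1.09% of all tested genes higher and 1.09% lower. They were Atf3 at log2 0.46 (SE 0.065, edgeR adjusted p = 0.00012), Ppp1r15a at 0.45 (0.0202), Eif4ebp1 at 0.30 (0.018) and Slc3a2 at 0.25 (0.0207). Atf3 kept its call in all 18 alternatives. The call of Ppp1r15a was lost without LPS + CA replicate 2, LPS + CGA replicate 1, LPS + CACys replicate 3 or LPS + CGACys replicate 1 (adjusted p up to 0.0734). That of Eif4ebp1 was lost without LPS + CGA replicate 1, LPS + CACys replicate 1 or 2 or LPS + CGACys replicate 1 (up to 0.0785), and that of Slc3a2 without LPS + CGA replicate 3, LPS + CACys replicate 2 or LPS + CGACys replicate 1 (up to 0.0824). In a fit of only those groups the calls of Slc3a2 (0.103), Eif4ebp1 (0.0777) and Ppp1r15a (0.0537) were lost. The count was 8 without LPS + CA replicate 1, 7 without LPS + CA replicate 3, 2 without LPS + CGA replicate 1 or LPS + CACys replicate 2, and 1 without LPS + CGACys replicate 1. Without LPS + CA replicate 2 Slc6a9 (0.39, adjusted p = 0.00256), Slc1a4 (0.39, 0.0171) and Gpt2 (0.28, 0.0454) were called. By the edgeR test 20 members had an unadjusted p under 0.05, all higher, against 15.5% of all tested genes. Of the 35 differences 2 lay below 0, against 48.4% of all tested genes. Without LPS + CA replicate 2 those of Cebpb (-0.10), Sars (-0.0013), Shmt2 (-0.01) and Pycr1 (-0.02) lay below 0 as well. The members share the same libraries, and this common direction was not tested. For Shmt2 the 2 adduct effects differed by 0.00 (95% interval -0.12 to 0.12) and for Slc38a2 by -0.10 (-0.22 to 0.02). For Atf4 the difference was 0.24 (0.09 to 0.40, 0.0936) and for Ddit3 0.48 (0.18 to 0.79, 0.0884), neither of which passed. Without the expression filter both were called (0.017 and 0.025), as they were without LPS + CA replicate 1 (0.0452 and 0.0259), and Atf4 also without LPS + CA replicate 3 (0.016). Leaving out LPS + CA replicate 2 gave 0.15 for Atf4 (edgeR adjusted p = 0.119) and 0.46 for Ddit3 (0.0986), neither called.

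**Figure D5:**
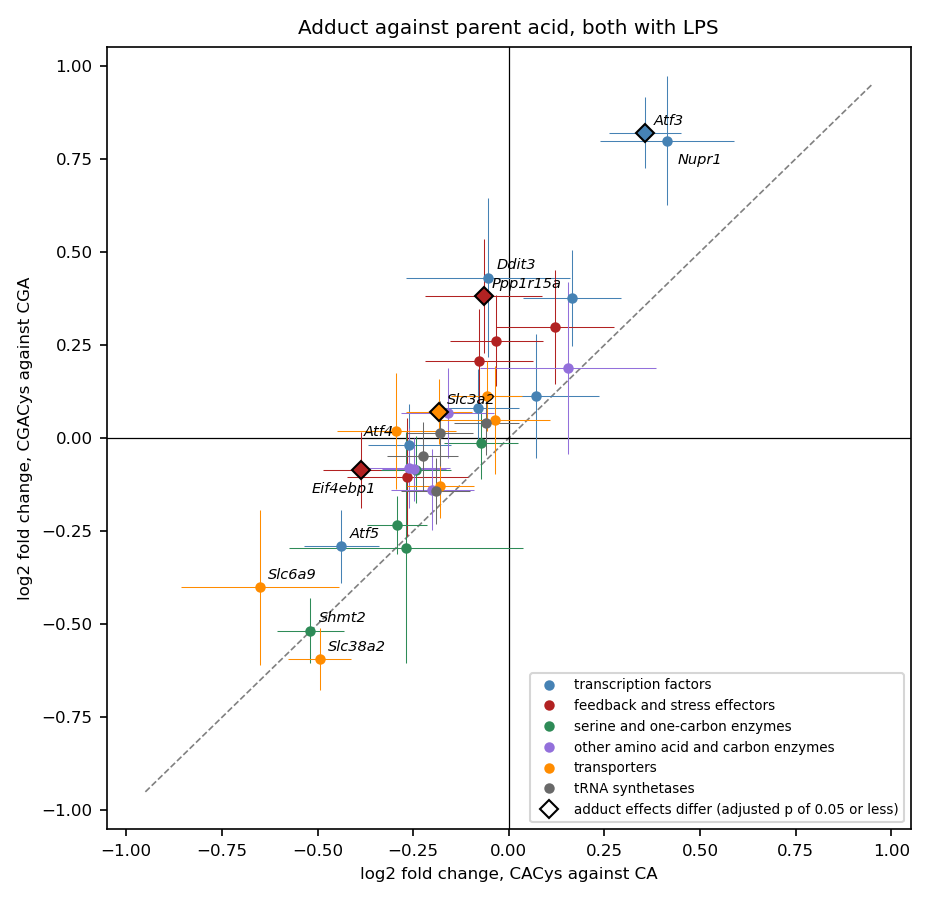
Log2 fold change of CGACys against CGA plotted on that of CACys against CA for the 35 tested members, with 95% intervals; the dashed line marks equal effects and diamonds the 4 members whose effects differed. Atf3 lies above the line at 0.36 and 0.82, and Shmt2 lies on it at -0.52 and -0.52.

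Last, the quinic acid ester was compared with the free acid. Between the parent compounds 0 members were higher and 4 lower with CGA than with CA, against 0.634% and 0.747% of all tested genes. These were Eif4ebp1 at log2 -0.29 (SE 0.049, edgeR adjusted p = 0.00188), Atf5 at -0.20 (0.0263), Atf3 at -0.18 (0.0464) and Slc3a2 at -0.18 (0.036), with no overlap in any of the 4. Without LPS + CA replicate 2 Atf5 (adjusted p = 0.0994) and Slc3a2 (0.0568) lost their calls, and Slc6a9 (-0.36, 0.000469) and Slc1a4 (-0.34, 0.00929) gained one. The count was 8 without LPS + CA replicate 1, 11 without LPS + CA replicate 3, 2 without LPS + CGA replicate 1 and 1 without LPS + CGA replicate 2 or 3. In a fit of only those groups 0 were called. Of the members not called, Ddit3 had the lowest bound of a 95% interval, at -0.48, and no interval of the 35 reached above 0.23. By the edgeR test 18 members had an unadjusted p under 0.05, all lower, against 17.6% of all tested genes. Of the 35 log2 changes 33 lay below 0, against 50.6% of all tested genes. Without LPS + CA replicate 2 Cebpb (0.05) and Pycr1 (0.0052) moved above 0 and Slc7a1 (-0.06) moved below it. The members share the same libraries, and this common direction was not tested.

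Between the adducts 3 members were higher and 0 lower with CGACys than with CACys, against 1.02% and 0.785% of all tested genes. They were Atf3 at log2 0.28 (SE 0.046, edgeR adjusted p = 0.000717), Sesn2 at 0.26 (0.0461) and Jdp2 at 0.23 (0.0462). Sesn2 stood at 85.9, 85.0 and 77.2 CPM with CACys and 102, 98.6 and 96.3 CPM with CGACys, groups that did not overlap. Its call was lost without any 1 of those 6 libraries (adjusted p up to 0.256), and that of Jdp2 without any of them but LPS + CGACys replicate 3 (up to 0.265). The 2 adducts were not called apart for Shmt2 (log2 -0.13, 95% interval -0.22 to -0.05), Slc38a2 (-0.12, -0.20 to -0.04), Psat1 (-0.06, -0.14 to 0.01) or Nupr1 (0.25, 0.07 to 0.42). DESeq2 called Shmt2 (adjusted p = 0.0347) and Slc38a2 (0.0322), and edgeR in a fit of only those groups called Shmt2 (0.0429) and Nupr1 (0.0245). Those intervals do not show that the adducts act alike.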

How the data were processed

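The deposited values were raw counts per gene, which the authors made from total RNA of RAW264.7 cells; the submitters' processing notes name HISAT, DESeq2 and the mm10 genome without versions. The counting program, annotation release and strand setting are not given in the sources used here. Library totals ran from 16105817 to 25624935 counts, which sets the counting precision. A single edgeR 4.0.16 model (R 4.3.3) held all 18 libraries. The filterByExpr step (minimum count 10, minimum total 15) left 13251 genes, and scaling used TMM factors. The common dispersion gave a biological coefficient of variation of 5.68%. For each of 10 contrasts edgeR's robust quasi-likelihood F test was run, p-values were adjusted by Benjamini-Hochberg across the tested table, and 0.05 was the threshold. The SE was taken from the size of the log2 change and the root of F, and gave the 95% intervals. Levels are CPM scaled by TMM factors. Floors of 3 counts and intervals cover counting error or library spread only. Genome positions come from a RefSeq table of GRCm38.p6, matched by symbol.

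The 8 core genes (Atf4, Ddit3, Trib3, Asns, Psat1, Mthfd2, Slc7a5 and Sars) are given in every library, with up to 4 called members per role and comparison that changed most and had a mean of 50 or more counts in the higher group, and with up to 3 genes per pathway list. Members named outside this rule, such as Psph, Pycr1 and the members not called, were chosen after their values were seen. The members and lists were chosen with earlier results of these data known. Replicate numbers were not used as pairs, since the deviations of same-numbered libraries correlated at -0.12 to 0.11 over 45 pairs. Alternatives were RLE and upper-quartile factors, no filter, a replicate term, a fit of only the groups compared, DESeq2 1.42.0 and omission of each library. Counts for the pathway lists under these were added after seeing the data. The method was tested on simulated data. Some genes of the pathway and marker lists, which stay in the counts, are not reported here by name.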

Additional observations from a re-analysis of the deposited data

Results flagged for a closer look

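The change from parent acid to cysteine adduct differed between CGA and CA in 4 members by a test of the difference itself (edgeR quasi-likelihood, Benjamini-Hochberg, 3 libraries per group). For Atf3 the adduct effect was larger in the CGA pair by a log2 of 0.46 (adjusted p = 0.00012). For Ppp1r15a it was larger by 0.45 (0.0202), with the adduct effect at -0.07 in the CA pair and 0.38 in the CGA pair. For Eif4ebp1 the signed effect was higher in the CGA pair by 0.3 (0.018), at -0.39 in the CA pair and -0.09 in the CGA pair. For Slc3a2 it was higher by 0.25 (0.0207), at -0.18 in the CA pair and 0.07 in the CGA pair. In size, the effects on Eif4ebp1 and Slc3a2 were thus smaller in the CGA pair, and this difference in size was not tested. The calls of the last 3 genes each depended on single libraries and were lost in a fit of only those groups.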

How the results depend on the processing

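None of the 114 called member results changed sign under the alternatives run, whereas of 236 not called 58 did so under at least 1, among them Cebpb with CA, from 0.0043 to -0.13 without LPS + CA replicate 2. For single members in the 10 comparisons each alternative gave 1 value, so that 1 result is counted under several alternatives. Of these values 4198 kept the side of the threshold that the reported fit gave. In 94 the alternative passed and the reported fit did not, and in 112 the reported fit passed and that alternative did not. Counts of members called moved by over 1.5 times in these cases. Without the expression filter 11 members differed between CGA and CA and 9 adduct effects differed. In a fit of only the groups compared 1 member was called with CA, 1 with CGA, 0 between CGA and CA, 5 between CGACys and CACys and 1 for the adduct effects. With DESeq2 the counts were 1 with CGA, 13 between CGA and CA and 5 between CGACys and CACys. With each library left out in turn the count ran from 33 to 34 for LPS, 2 to 5 for CA, 0 to 0 for CGA, 9 to 12 for CACys, 14 to 17 for CGACys, 19 to 23 for CACys against CA, 12 to 16 for CGACys against CGA, 1 to 11 for CGA against CA, 1 to 2 for CGACys against CACys (1 without any CACys library or without CGACys replicate 1 or 2) and 1 to 8 for the adduct effects. The causes were not tested. With the replicate number as a block, which the data did not show to pair the libraries (3 of 18 libraries correlated best with their own number), the counts were 33, 3, 0, 12, 17, 22, 15, 4, 3 and 5 in the order just given. With CGA 0 members were called in the reported edgeR fit, where 5 had an unadjusted p under 0.05. An edgeR fit of only those groups called 1, and DESeq2 called 1. With 3 libraries per group a missed call does not show that a gene did not change.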

Other observations

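In the CACys against CA comparison 11 of 91 tested genes in the 6 pathway lists, outside the named set, were higher and 24 lower. These were 12.1% and 26.4%, against 15.2% and 11.9% of all tested genes. Of the 10 tested other genes reported as ATF4 responsive 2 were higher and 5 lower. With each library left out in turn the count lower was 5. Values of single list genes without LPS + CA replicate 2 are not given. Gdf15, a stress cytokine gene, differed by a log2 of -0.92 (edgeR quasi-likelihood adjusted p = 7.83e-06), Cth by -0.52 (5.54e-08) and Slc7a11 by -0.48 (0.000663). Sqstm1, which encodes the autophagy receptor p62, differed by -0.41 (6.32e-09). In the same comparison Eif2ak2, the eIF2 kinase PKR, was higher by 0.60 (7.84e-08), and between CGACys and CGA by 0.52 (3.98e-07).

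Between CGACys and CGA 15 of the 91 list genes were higher and 21 lower. These were 16.5% and 23.1%, against 18.2% and 14.9% of all tested genes. Of the 10 tested other genes reported as ATF4 responsive 3 were higher and 5 lower. Gdf15 differed by -0.37 (edgeR adjusted p = 0.0388), Cth by -0.36 (1.53e-05) and Slc7a11 by -0.34 (0.00769). Bbc3, which encodes the death protein PUMA, was higher by 0.54 (9.38e-06). For Sqstm1 the log2 value of the CGA pair lay above the negative value of the CA pair by 0.40 (0.00012). The adduct effect on Sqstm1 was thus not larger in the CGA pair. For Mthfd1 the log2 value of the CGA pair was the lower, by a difference of -0.32 (0.0203). These genes were picked by size of change within lists chosen with earlier results of these data known.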
